A study of Homo sapiens with 9 samples.

Results

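Stanniocalcins are secreted glycoproteins, first known from bony fish, where the corpuscles of Stannius release them and they lower blood calcium. Mammals make a pair of paralogs in many tissues, and both act mainly near the cells that secrete them. Both proteins bind and inhibit the metalloproteinase PAPP-A, which cuts insulin-like growth factor binding proteins and so frees the growth factors. In human cells both genes are known to respond to hypoxia through HIF1, and STC2 is also a known target of the stress factor ATF4.

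The genes described here are STC1 and STC2, 2 of the 22411 genes that had an array row with a single gene symbol. They were selected with their values on these same arrays already known, so their levels and differences are a description and carry no test. Each gene had 1 row, and no row naming several genes included either of them. Both passed the minimum level for testing, a mean of at least 4.25 on the log2 scale, which 15964 genes reached. STC1 averaged 7.60 over all arrays and STC2 averaged 6.18.

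RNA abundance was read in A549, an established human cell line grown from an adenocarcinoma of the lung, at 72 h after the cells were given small interfering RNA (siRNA). The 3 groups had 3 arrays each. They were si-FAM210B, against the RNA of a mitochondrial membrane protein, si-UQCRC2, against the RNA of a core subunit of respiratory complex III, and si-negative control, called control below. Every group was transfected, the siRNAs were mixtures, and no untransfected cells are among the samples. Arrays within a group are labelled biological replicates, but nothing states that they came from separate cultures, and the p-values below cover only the variation among these arrays. In bulk RNA, a gene read higher in every cell and one read higher in a share of the cells cannot be told apart.

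UQCRC2 RNA averaged 8.36 ± 0.01 (log2 signal, SD, n = 3) in si-UQCRC2 arrays and 9.83 ± 0.13 in control arrays, lower by a difference of -1.47 (limma, adjusted p = 0.000375). FAM210B read 6.48, 6.10 and 6.22 in si-FAM210B arrays, against 6.39, 6.46 and 6.48 in control arrays, and was not called (limma, adjusted p = 0.239). On this row the array labelled si-FAM210B replicate 1 read as high as the control arrays, so it is called below by its label only. It and control replicate 3 also stood apart from the other arrays of their groups, and their deviations correlated across genes (r = 0.742, over genes, which are not independent replicates). The deviations of si-FAM210B replicate 2 correlated about as strongly with those of control replicate 3, but negatively (r = -0.74). The STC1 and STC2 differences and the counts in gene lists are also given without the array labelled si-FAM210B replicate 1 and control replicate 3 together. In that fit more genes were called: 3889 for si-FAM210B against control, 2736 for si-UQCRC2 against control and 3835 for si-FAM210B against si-UQCRC2, where all 9 arrays gave 1002, 712 and 1561. Of the 15964 genes tested, it called 1792 higher and 2097 lower, 1314 and 1422, and 1760 and 2075 in the same order. List counts from that fit are to be read beside these larger numbers. Leaving out single arrays also moved the number of all genes called, as given in the closing section. Of 10 epithelial and A549 markers, 9 had a row and all 9 passed the minimum. Of 14 markers of blood, endothelial and fibroblast cells, 13 had a row and 7 passed it. Those 7 averaged from 4.44 (CD3E) to 6.44 (COL1A1) in control arrays, so passing the minimum does not by itself mark a gene of the cell line. PTPRC, the pan-leukocyte marker, was among those below it and averaged 2.54 in si-FAM210B, 2.46 in si-UQCRC2 and 2.49 in control arrays.

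STC1 RNA was higher under both siRNAs than in control. STC1 read 7.95, 8.17 and 8.20 in si-FAM210B arrays, 8.10, 7.83 and 7.98 in si-UQCRC2 arrays and 6.76, 6.66 and 6.73 in control arrays. All 6 arrays of targeting siRNA lay above all 3 control arrays. The gap between the lowest si-FAM210B array and the highest control array was 1.19, and the same gap for si-UQCRC2 was 1.06. These gaps were several times the SDs of STC1, which were 0.13 in si-FAM210B, 0.14 in si-UQCRC2 and 0.05 in control arrays.

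The difference of STC1 group means was 1.39 ± 0.09 (log2, SE) for si-FAM210B minus control, 2.61-fold the control signal. It was 1.25 ± 0.09 for si-UQCRC2 minus control, 2.38-fold the control signal. Among the 15964 genes tested, 1 had a larger positive difference than STC1 under si-FAM210B and 4 had a larger one under si-UQCRC2. The siRNA groups overlapped with each other in STC1, and si-FAM210B minus si-UQCRC2 was 0.14 ± 0.09. The order of STC1 levels was thus si-FAM210B, si-UQCRC2 and control, and the siRNA groups were not apart. Groups without overlap were common on these arrays: 24.0% of the genes tested were apart in either direction between si-FAM210B and control, and 29.2% between si-UQCRC2 and control. Without the array labelled si-FAM210B replicate 1 and control replicate 3, the STC1 differences were 1.47 for si-FAM210B and 1.26 for si-UQCRC2 against control. Both comparisons use the same control arrays.

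**Figure D1:**
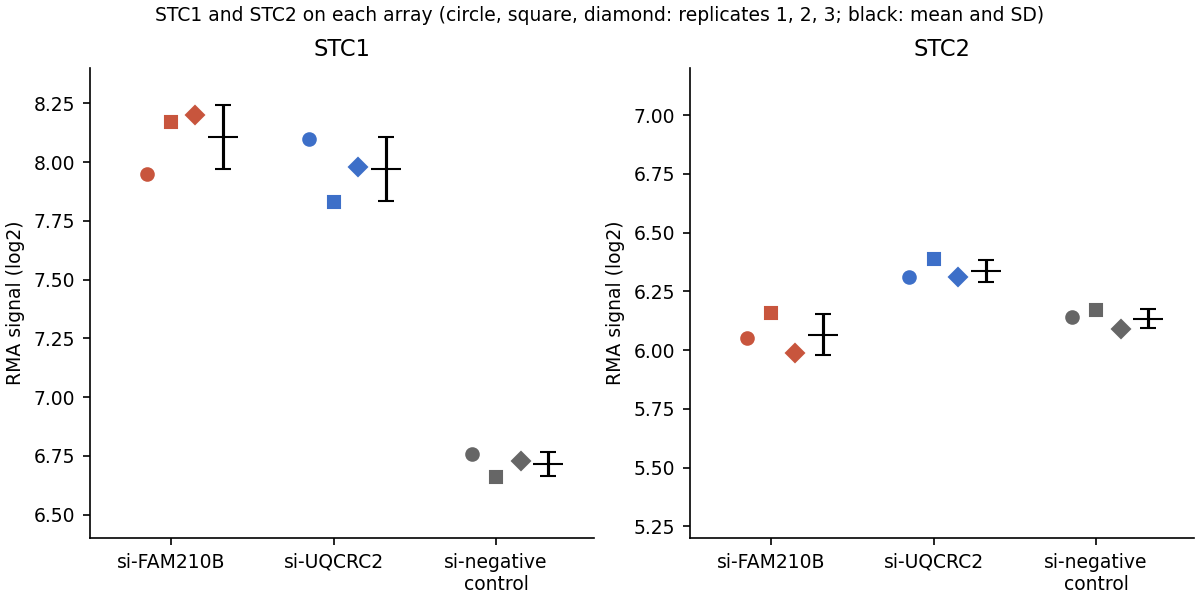
RMA signal (log2, vertical axis) of STC1 and STC2 on each of the 9 arrays, by siRNA group; points are arrays and black marks are the mean and SD of 3 arrays. STC1 lies between 7.83 and 8.20 on the 6 arrays of targeting siRNA and between 6.66 and 6.76 on the control arrays, while STC2 stays between 5.99 and 6.39 on all 9.

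STC2 RNA stayed within a narrow range. Its mean of 6.18 was below the median level of the genes tested, which was 6.35 to 6.39 over the arrays. Whether a weak signal narrowed the STC2 differences was not tested. STC2 read 6.05, 6.16 and 5.99 in si-FAM210B arrays, 6.31, 6.39 and 6.31 in si-UQCRC2 arrays and 6.14, 6.17 and 6.09 in control arrays. The si-FAM210B arrays overlapped with the control arrays, whereas the si-UQCRC2 arrays lay above both other groups. The gap above the highest control array was 0.15, and the gap above the highest si-FAM210B array was 0.16.

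The difference of STC2 group means was -0.07 ± 0.06 (log2, SE) for si-FAM210B minus control, a fold of 0.95. For si-UQCRC2 minus control it was 0.21 ± 0.06, 1.15-fold the control signal, with 1039 genes tested showing a larger positive difference. For si-FAM210B minus si-UQCRC2 it was -0.28 ± 0.06, a fold of 0.83. The order of STC2 levels was si-UQCRC2, control and si-FAM210B, of which control and si-FAM210B were not apart. Between si-FAM210B and si-UQCRC2, 41.7% of the genes tested had groups without overlap in either direction, so such a separation alone is common here. Without the array labelled si-FAM210B replicate 1 and control replicate 3, the STC2 differences were -0.08, 0.19 and -0.27 in the same order.

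**Figure D2:**
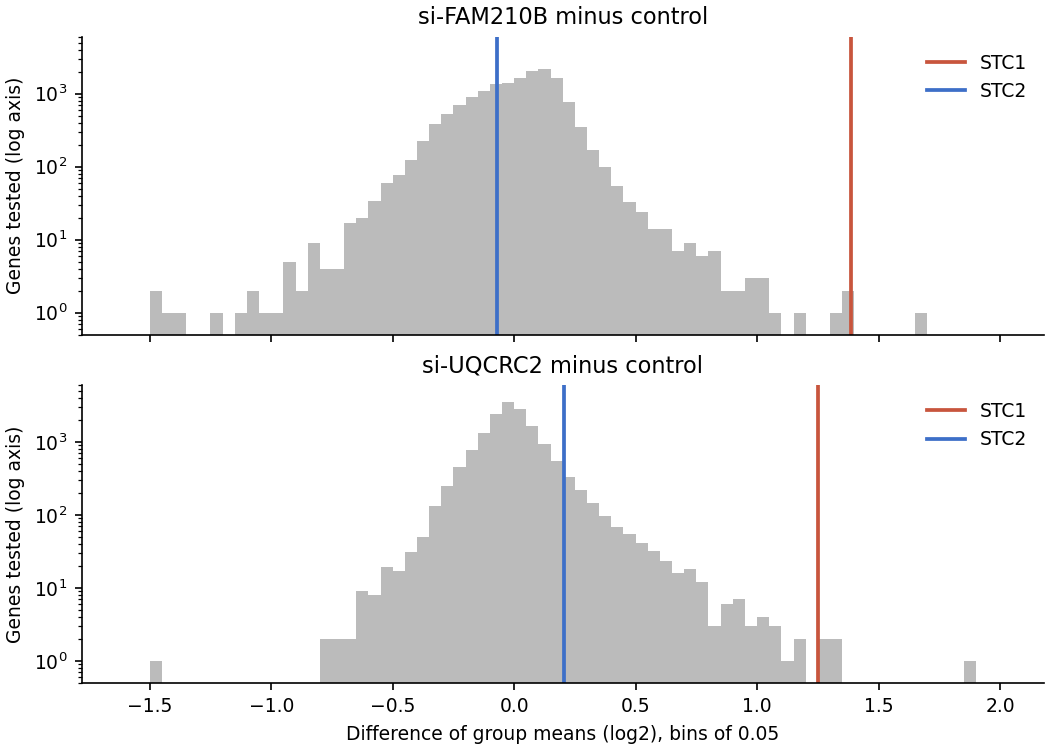
Number of genes tested (vertical, log axis) by the difference of group means (log2, horizontal axis, bins of 0.05) for si-FAM210B minus control above and si-UQCRC2 minus control below. The lines mark STC1, at 1.39 and 1.25 in the sparse right tail, and STC2. STC2 lies at -0.07 within the bulk of the genes above, and at 0.21 below, where 1039 genes had a larger positive difference.

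The STC2 promoter window is shown because STC2 is the paralog that RefSeq's promoter table holds, and because 2 of the gene lists below are built on factors with known binding motifs. The window runs from 250 bases before to 50 bases after the start of the gene, on the minus strand, at chr5:173328365-173328664 of GRCh38.p14. Capitals mark GCGTG and its reverse complement CACGC, one form of the core bound by HIF1.
STC2 promoter: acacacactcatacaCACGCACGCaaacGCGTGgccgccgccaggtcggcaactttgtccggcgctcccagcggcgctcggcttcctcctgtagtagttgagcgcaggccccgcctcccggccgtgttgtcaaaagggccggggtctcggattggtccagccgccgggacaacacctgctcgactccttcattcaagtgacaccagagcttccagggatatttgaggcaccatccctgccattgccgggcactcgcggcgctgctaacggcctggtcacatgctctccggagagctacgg
Searched on both strands, GCGTG matched 3 times, and 36.5% of the 35116 promoter windows in the table held it at least once. Counted from the start of the gene, one match began at -222 on the gene's own strand, and the others, which share 1 base, lay on the opposite strand at -235 and -231. The other HIF1 core form, ACGTG, had 0 matches in this window, and 21.4% of all windows held it. TGATGNAA, the composite element bound by ATF4 with a C/EBP partner, also had 0 matches, and 3.62% of all windows held it. A match is a run of letters and shows no binding.

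The paralogs differed in how far they stood from control under each siRNA. Relative to its own control mean, STC1 stood at 1.23, 1.45 and 1.48 on the si-FAM210B arrays and STC2 at -0.08, 0.02 and -0.15 on the same arrays. On the si-UQCRC2 arrays STC1 stood at 1.38, 1.11 and 1.26 and STC2 at 0.18, 0.26 and 0.18. The STC1 value was the greater on each of these 6 arrays, and its control arrays were within 0.06 of their mean.

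The STC1 difference minus the STC2 difference was 1.46 ± 0.12 (log2, SE pooled over the 3 groups) for si-FAM210B against control and 1.05 ± 0.12 for si-UQCRC2 against control. For si-FAM210B against si-UQCRC2 it was 0.41 ± 0.12, since STC1 was 0.14 higher and STC2 was 0.28 lower under si-FAM210B. Without the array labelled si-FAM210B replicate 1 and control replicate 3 these values were 1.55, 1.07 and 0.48. On the per-array STC1 minus STC2 values, the groups did not overlap in any of the 3 comparisons, whereas STC1 alone overlapped between the siRNAs and STC2 alone overlapped between si-FAM210B and control.

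**Figure D3:**
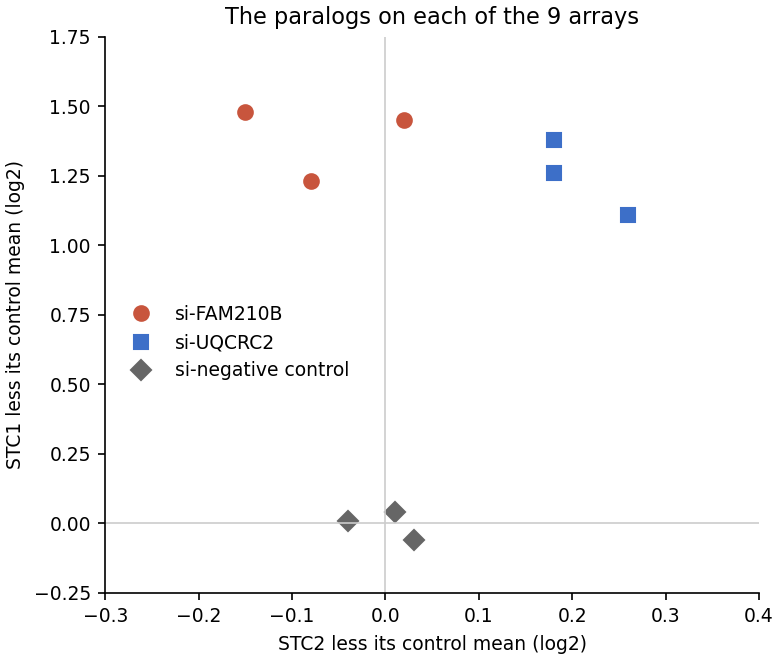
Each of the 9 arrays by STC2 (horizontal axis) and STC1 (vertical axis), both as log2 signal less the mean of the gene's control arrays. The 6 arrays of targeting siRNA lie between 1.11 and 1.48 for STC1; for STC2 the si-FAM210B arrays lie between -0.15 and 0.02 and the si-UQCRC2 arrays between 0.18 and 0.26.

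Of 9 genes of the PAPP-A axis, 8 had a row and 5 passed the minimum level. None of the 5 was called against control under either siRNA by limma, with adjusted p-values over all genes tested, and 1 had an unadjusted p under 0.05 in each of these comparisons. The background was 2.78% of genes called higher and 3.50% called lower under si-FAM210B, and 3.02% higher and 1.44% lower under si-UQCRC2, so a count of 0 among 5 genes is near the background. PAPPA, the protease itself, read 8.67, 8.84 and 8.92 in si-FAM210B arrays, 8.57, 8.65 and 8.61 in si-UQCRC2 arrays and 8.66, 8.77 and 8.78 in control arrays. PAPPA thus differed by 0.08 ± 0.07 for si-FAM210B and by -0.12 ± 0.07 for si-UQCRC2 against control, in log2 with SE.

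IGFBP4, a binding protein that PAPP-A cuts, was the 1 member called between the siRNAs, where the background was 3.28% of genes called higher and 6.50% called lower in si-FAM210B. IGFBP4 read 11.14, 10.82 and 10.91 in si-FAM210B arrays, against 10.62, 10.65 and 10.64 in si-UQCRC2 arrays, a difference of 0.32 ± 0.09 (limma, adjusted p = 0.0463). That call was lost when any si-UQCRC2 array, the array labelled si-FAM210B replicate 1, si-FAM210B replicate 3, or control replicate 1 or 2 was left out (adjusted p 0.0584 to 0.152). IGFBP5, also cut by PAPP-A, differed by 0.26 ± 0.10 for si-FAM210B minus control and was not called (limma, adjusted p = 0.149). IGFBP2 averaged 7.51 in si-FAM210B, 7.42 in si-UQCRC2 and 7.50 in control arrays, and the receptor IGF1R averaged 9.88, 9.85 and 9.94 in the same order. Below the minimum were PAPPA2, a related protease, IGF1, a growth factor ligand, and PRG2, whose proform inhibits PAPP-A, with group means from 2.97 to 3.99. With the array labelled si-FAM210B replicate 1 and control replicate 3 both left out, the counts were 0 higher and 0 lower for si-FAM210B against control, 0 higher and 1 lower for si-UQCRC2 against control, and 2 higher and 0 lower between the siRNAs. Of all 15964 genes tested, that fit called 1422 lower for si-UQCRC2 against control and 1760 higher between the siRNAs. Leaving out si-FAM210B replicate 2 alone also gave 1 higher for si-FAM210B against control and 2 higher between the siRNAs, and leaving out the array labelled si-FAM210B replicate 1 alone gave 1 lower for si-UQCRC2 against control. Of all genes tested, these fits called 890 higher, 1541 higher and 687 lower in the same order.

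Stanniocalcin 1 is known in rodents for effects on phosphate uptake in kidney and gut. Of 27 genes of phosphate and calcium handling, 24 had a row and 19 passed the minimum. Under si-FAM210B against control 1 of the 19 was called higher and 0 lower, and the counts under si-UQCRC2 were also 1 and 0, near the background shares of 2.78% and 3.50% under si-FAM210B and 3.02% and 1.44% under si-UQCRC2. Without the array labelled si-FAM210B replicate 1 and control replicate 3 together, 3 were called higher and 1 lower under si-FAM210B and 4 higher and 1 lower under si-UQCRC2. Of all 15964 genes tested, that fit called 1792 higher and 2097 lower under si-FAM210B and 1314 and 1422 under si-UQCRC2. Without the first of these arrays alone, 3 of the 19 were higher under si-UQCRC2, beside 967 of all genes tested. The median difference of the 19 was 0.08 for si-FAM210B and 0.00 for si-UQCRC2, beside 0.03 and -0.01 for all genes tested.

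VDR, the receptor for active vitamin D, was the member that rose under si-FAM210B. VDR read 6.15, 5.99 and 5.93 in si-FAM210B arrays, against 5.35, 5.48 and 5.56 in control arrays, a difference of 0.56 ± 0.08 (limma, adjusted p = 0.00352). That call held with each single array left out, at adjusted p-values up to 0.0228. ATP2B4, a plasma membrane calcium pump, was the member that rose under si-UQCRC2, by 0.36 ± 0.06 (limma, adjusted p = 0.0061). It read 6.91, 6.96 and 6.93 in si-UQCRC2 arrays, against 6.54, 6.62 and 6.55 in control arrays.

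Between the siRNAs 1 of the 19 was called higher in si-FAM210B and 2 were called lower, beside 3.28% and 6.50% of all genes tested. SLC20A1, a sodium-dependent phosphate transporter, differed by -0.58 ± 0.12 for si-FAM210B minus si-UQCRC2 (limma, adjusted p = 0.0146). VDR was 0.33 higher and ATP2B4 0.22 lower (log2 -0.22) in si-FAM210B than in si-UQCRC2, at adjusted p-values in limma of 0.0279 and 0.0388. The SLC20A1 call was lost without any one si-UQCRC2 array (adjusted p 0.0611 to 0.0643), and those of VDR and ATP2B4 were lost without any one of these arrays or without control replicate 2. ATP2B4 also lost its call without control replicate 1 or si-FAM210B replicate 3, and over all these omissions the adjusted p was 0.0508 to 0.122 for VDR and 0.0574 to 0.153 for ATP2B4. With both arrays that stood apart left out, 1 was called higher and 3 lower between the siRNAs, beside 1760 and 2075 of all 15964 genes tested. The count of 1 higher was 2 without si-FAM210B replicate 2, beside 1541 of all genes tested.

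STC2 is known in mouse cells as a brake on store-operated calcium entry, the influx that follows emptying of the endoplasmic reticulum. Of 12 genes of this entry and of reticulum calcium, 11 had a row and all 11 passed the minimum. Under si-FAM210B 0 were called higher and 1 lower against control, and under si-UQCRC2 1 was called higher and 1 lower. The background was 2.78% of genes called higher and 3.50% lower under si-FAM210B, and 3.02% and 1.44% under si-UQCRC2. With both arrays that stood apart left out, the counts were 1 higher and 1 lower under si-FAM210B, 3 higher and 2 lower under si-UQCRC2, and 1 higher and 3 lower between the siRNAs. Of all 15964 genes tested, that fit called 1792 and 2097, 1314 and 1422, and 1760 and 2075 in the same order. ATP2A2, the reticulum calcium pump SERCA2, averaged 10.57 ± 0.19 in si-FAM210B and 10.91 ± 0.06 in control arrays (SD, n = 3 each; limma, adjusted p = 0.0473). ITPR2 averaged 6.22 ± 0.05 in si-UQCRC2 and 5.82 ± 0.13 in control arrays, and ITPR3 averaged 7.49 ± 0.04 and 7.73 ± 0.08 in the same order; both encode channels that release calcium from the reticulum. Their limma adjusted p-values were 0.0433 and 0.0494. These 3 calls were close to the threshold and each was lost in 6 to 8 of the 9 fits that left out 1 array, ATP2A2 without any control or si-UQCRC2 array and both ITPR genes without any of these arrays or si-FAM210B replicate 3. ITPR3 also lost its call without si-FAM210B replicate 2, and over these fits the adjusted p was 0.0535 to 0.184 for ATP2A2, 0.0675 to 0.179 for ITPR2 and 0.0504 to 0.242 for ITPR3. Between the siRNAs ITPR2 was the 1 gene of the 11 called, where 3.28% of all genes tested were called higher and 6.50% lower. It had a difference of -0.48 ± 0.09 for si-FAM210B minus si-UQCRC2 (limma, adjusted p = 0.0122), and the call was lost without si-UQCRC2 replicate 1 or 2 (adjusted p 0.0567 and 0.0622).

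UCP2, a carrier of the inner mitochondrial membrane, moved in opposite directions under the siRNAs. In mouse macrophages, stanniocalcin 1 is known to raise UCP2. UCP2 read 7.61, 7.52 and 7.45 in si-FAM210B arrays, 8.47, 8.62 and 8.52 in si-UQCRC2 arrays and 8.06, 8.16 and 8.10 in control arrays. No group overlapped with another, and control lay between the siRNAs. UCP2 fell by 0.58 ± 0.07 on the log2 scale under si-FAM210B (limma, adjusted p = 0.00103) and rose by 0.43 ± 0.07 under si-UQCRC2 (limma, adjusted p = 0.00524). Si-FAM210B minus si-UQCRC2 was -1.01 ± 0.07 (limma, adjusted p = 3.41e-05), and all 3 calls held with each single array left out. STC1, in contrast, was higher than control under both. Of 5 genes of the uncoupling family, all 5 had a row and 3 passed the minimum. UCP2 was the 1 called in each comparison. Of all genes tested, 3.50% were called lower under si-FAM210B, 3.02% higher under si-UQCRC2 and 6.50% lower between the siRNAs. In the fit without both arrays that stood apart, 2 of the 3 family members were called lower under si-FAM210B, beside 2097 of all 15964 genes tested. The other counts of this family were as with all 9 arrays.

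Of 26 HIF1 targets other than the stanniocalcins, 25 had a row and 24 passed the minimum. Under si-FAM210B 0 were called higher and 2 lower against control, and under si-UQCRC2 none was called by limma, with 5 at an unadjusted p under 0.05. These counts are near the background shares of 2.78% higher and 3.50% lower under si-FAM210B and 3.02% and 1.44% under si-UQCRC2. For si-UQCRC2 against control 2 were called higher and 1 lower without the array labelled si-FAM210B replicate 1, beside 967 and 687 of all genes tested. Without control replicate 3, 1 was called higher, beside 330 of all genes tested. Leaving out control replicate 3 also gave 1 called higher for si-FAM210B against control, beside 575. The median difference of the list was -0.06 for si-FAM210B and 0.06 for si-UQCRC2 against control. HILPDA, a lipid droplet protein, read 5.82, 5.91 and 6.04 in si-FAM210B arrays, against 6.60, 6.59 and 6.49 in control arrays, and fell by 0.64 ± 0.07 on the log2 scale (limma, adjusted p = 0.000716). CA12, a carbonic anhydrase of the cell surface, averaged 10.01 ± 0.14 in si-FAM210B and 10.51 ± 0.04 in control arrays, a difference of -0.50 ± 0.07 (limma, adjusted p = 0.00407). VEGFA, the vascular growth factor, averaged 6.82 in si-FAM210B, 6.96 in si-UQCRC2 and 6.90 in control arrays and was not called.

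Between the siRNAs 6.50% of all genes tested were called lower in si-FAM210B and 3.28% higher. Of the 24 HIF1 targets, 3 were called lower and 0 higher. They were HILPDA at -0.52 (limma, adjusted p = 0.00179), CA12 at -0.26 (adjusted p = 0.0461) and the collagen prolyl hydroxylase subunit P4HA1 at -0.52 (adjusted p = 0.0255). Those of CA12 and P4HA1 were lost without any one si-UQCRC2 array, that of CA12 also without control replicate 1 or 2 and that of P4HA1 also without si-FAM210B replicate 3. Over these omissions the adjusted p was 0.0681 to 0.148 for CA12 and 0.0513 to 0.0992 for P4HA1. The count of 3 was 1 without any one si-UQCRC2 array, 2 without control replicate 1 or 2 or si-FAM210B replicate 3, 4 without the array labelled si-FAM210B replicate 1 and 5 without si-FAM210B replicate 2. The count of 2 called lower against control was 4 without the array labelled si-FAM210B replicate 1. Without the array labelled si-FAM210B replicate 1 and control replicate 3 together, 11 HIF1 targets were called lower in si-FAM210B than in si-UQCRC2. That fit called 2075 of all 15964 genes tested lower. In it 3 HIF1 targets were called higher and 4 lower for si-FAM210B against control, beside 1792 and 2097 of all genes tested. For si-UQCRC2 against control 4 were called higher and 2 lower, beside 1314 and 1422.

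More ATF4 targets were called lower than higher in si-FAM210B against si-UQCRC2, where STC2 read 0.28 lower (log2 -0.28). Of 29 ATF4 targets other than STC2, 28 had a row and 26 passed the minimum. Between the siRNAs 10 of the 26 were called lower in si-FAM210B and 3 higher, beside 6.50% and 3.28% of all genes tested, and the list's median difference was -0.28, beside 0.05 for all genes tested. All gene lists here were chosen with earlier results of these data known, so their counts are a description and not an independent test. PHGDH, the first enzyme of serine synthesis, read 6.46, 6.51 and 6.50 in si-FAM210B arrays, against 6.85, 6.79 and 6.86 in si-UQCRC2 arrays, a difference of -0.34 ± 0.05 (limma, adjusted p = 0.00346). PSAT1, the next enzyme of that route, differed by -0.45 ± 0.09, and GDF15, a secreted stress cytokine, by -0.72 ± 0.15. DDIT4, an inhibitor of the growth kinase mTORC1, differed by -0.35 ± 0.07. The limma adjusted p-values were 0.0167 for PSAT1, 0.0174 for GDF15 and 0.0154 for DDIT4. The 3 called higher were PPP1R15A at 0.42, SLC7A5 at 0.21 and SLC3A2 at 0.20 (limma, adjusted p = 0.0373, 0.0346 and 0.0366). ATF4 itself differed by -0.09 and was not called (limma, adjusted p = 0.328).

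The count of 10 moved most with the si-UQCRC2 arrays, and was 2, 1 and 1 without replicate 1, 2 and 3 of that group. In the same fits the genes called lower among all 15964 tested fell from 1037 to 396, 374 and 359. The median SD of a tested gene was 0.130 in si-FAM210B, 0.0379 in si-UQCRC2 and 0.0878 in control arrays. The count of 10 was 7 to 14 without one of the other arrays, beside 660 to 1739 of all genes tested. It was 15 without the array labelled si-FAM210B replicate 1 and control replicate 3 together, beside 2075 of all genes tested. The 3 called higher were 0 without any one si-UQCRC2 array, si-FAM210B replicate 3 or control replicate 1 or 2, and 3 or 4 in the other single omissions and without both of the arrays that stood apart. All genes called higher then numbered 146 to 392 and 657 to 1760 in the same order. PHGDH kept its call with each single array left out. PSAT1 and GDF15 lost theirs without any one si-UQCRC2 array, GDF15 also without si-FAM210B replicate 3, and DDIT4 without si-UQCRC2 replicate 2 or 3, at adjusted p-values of 0.0564 to 0.0821 over the 3 genes.

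Against control, the background was 2.78% of genes called higher and 3.50% lower under si-FAM210B, and 3.02% and 1.44% under si-UQCRC2. Of the 26 ATF4 targets, 0 were called higher and 1 lower under si-FAM210B, and 4 were called higher and 1 lower under si-UQCRC2. The gene lower under si-FAM210B was GDF15, which read 7.66, 7.26 and 7.10 in si-FAM210B arrays and 7.71, 7.97 and 8.21 in control arrays (limma, adjusted p = 0.0398). The 4 that were higher under si-UQCRC2 were WARS1 and SESN2, a tRNA synthetase and a nutrient sensor, and ALDH1L2 and PHGDH, enzymes of folate and serine metabolism. Their differences were 0.28, 0.33, 0.59 and 0.22, at limma adjusted p-values of 0.013, 0.0186, 0.0388 and 0.0392. All 4 were lost without any one si-UQCRC2 array and without control replicate 1 or 2, and the list's count was then 0; over these fits and those that left out the arrays named next, the adjusted p ranged from 0.0547 to 0.203. ALDH1L2 and PHGDH also lost their calls without control replicate 3 or si-FAM210B replicate 3, and the count of 4 was 3 and 2 without these arrays and 6 without the array labelled si-FAM210B replicate 1. These fits called 330, 382 and 967 of all genes tested higher under si-UQCRC2, in the same order. The GDF15 call was lost in 7 of 9 such fits, all but those without the array labelled si-FAM210B replicate 1 or control replicate 1, at adjusted p-values of 0.0536 to 0.133. Under si-FAM210B 1 ATF4 target was called higher without the array labelled si-FAM210B replicate 1, si-FAM210B replicate 2 or control replicate 3. Of all genes tested, these fits called 640, 890 and 575 higher in that order. Without si-FAM210B replicate 2, 2 were called lower, beside 1085 of all genes tested. Without the array labelled si-FAM210B replicate 1 and control replicate 3 together, 2 were called higher and 5 lower under si-FAM210B and 8 higher and 1 lower under si-UQCRC2. Of all 15964 genes tested, that fit called 1792 and 2097 under si-FAM210B and 1314 and 1422 under si-UQCRC2.

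**Figure D4:**
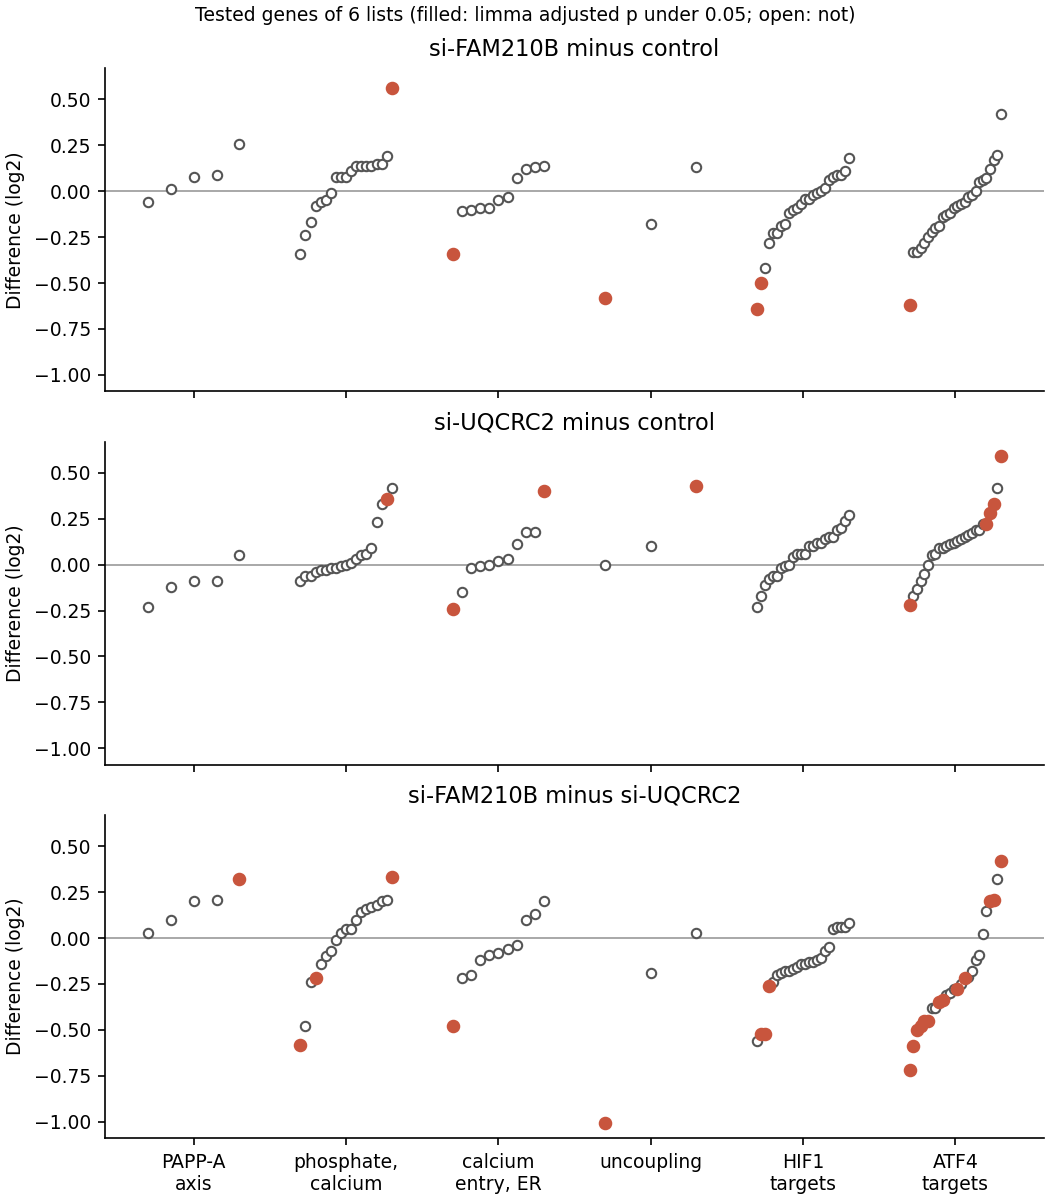
Difference of group means (log2, vertical axis) of each tested gene in the 6 lists, for si-FAM210B minus control, si-UQCRC2 minus control and si-FAM210B minus si-UQCRC2 from top to bottom; filled points passed a limma adjusted p of 0.05. UCP2 lies at -0.58, 0.43 and -1.01, and the ATF4 targets have 10 filled points below 0 and 3 above 0 in the bottom panel.

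CDH1, the epithelial cadherin, averaged 6.58 ± 0.05 in si-FAM210B and 7.67 ± 0.05 in control arrays, a difference of -1.09 ± 0.06 (limma, adjusted p = 1.82e-05). Under si-FAM210B against control 1 of the 9 epithelial and A549 markers was called higher and 1 lower, and under si-UQCRC2 2 were called higher and 0 lower, where the background shares were 2.78% and 3.50% under si-FAM210B and 3.02% and 1.44% under si-UQCRC2. In the fit without both arrays that stood apart, 2 were called higher and 2 lower under si-FAM210B and 5 higher and 0 lower under si-UQCRC2. Of all 15964 genes tested, that fit called 1792 and 2097 under si-FAM210B and 1314 and 1422 under si-UQCRC2. Leaving out the array labelled si-FAM210B replicate 1 alone gave 2 lower under si-FAM210B and 5 higher under si-UQCRC2, beside 631 and 967 of all genes tested. Any other single omission but that of si-FAM210B replicate 2 left 1 higher under si-UQCRC2, beside 198 to 382 of all genes tested. KRT19, an epithelial keratin, rose under si-UQCRC2 by 0.73 ± 0.07 (limma, adjusted p = 0.000305). CDH2, the neural cadherin, was 0.52 ± 0.10 higher under si-FAM210B than in control (limma, adjusted p = 0.0176), a call lost without control replicate 1 or 2 or si-FAM210B replicate 3 (adjusted p 0.0547 to 0.0646). EPCAM, an adhesion molecule of epithelia, was 0.24 higher under si-UQCRC2 than in control (limma, adjusted p = 0.0442), a call lost without any one control or si-UQCRC2 array or si-FAM210B replicate 3 (adjusted p 0.057 to 0.221). Between the siRNAs 4 of the 9 were called lower in si-FAM210B, namely CDH1, KRT19, EPCAM and KRT8, beside 6.50% of all genes tested, and all 4 calls held with each single array left out. None was called higher by limma with all 9 arrays, 1 was without the array labelled si-FAM210B replicate 1, and without both arrays 5 were lower and 1 higher. Of all genes tested, the first omission called 734 higher, and the second called 2075 lower and 1760 higher. Of the 7 tested markers of other cell types none was called against control under either siRNA by limma, with 2 at an unadjusted p under 0.05 for si-FAM210B and 1 for si-UQCRC2. The fibroblast collagen COL1A1 was the 1 of these called between the siRNAs, where 3.28% of all genes tested were called higher. It was 0.40 higher in si-FAM210B (limma, adjusted p = 0.0205), a call lost without si-FAM210B replicate 3 or any one si-UQCRC2 array (adjusted p 0.0615 to 0.0887). Without both arrays that stood apart, 1 of these markers was called higher under each siRNA against control, and 1 higher and 1 lower between the siRNAs. With 1 array left out, 1 was called higher for si-FAM210B against control without si-FAM210B replicate 2 or control replicate 3, beside 890 and 575 of all genes tested. For si-UQCRC2 against control 1 was higher without the array labelled si-FAM210B replicate 1 or without si-FAM210B replicate 2, beside 967 and 523. Between the siRNAs 3 were higher without si-FAM210B replicate 2 and 1 was lower without the array labelled si-FAM210B replicate 1, beside 1541 and 1054. The part of these markers in the STC1 and STC2 differences was not tested.

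One gene near STC1 was also higher under both siRNAs, by a smaller difference. Of the nearest 3 genes with a row on each side, 4 passed the minimum. Of all genes tested, 2.78% were called higher and 3.50% lower under si-FAM210B, and 3.02% and 1.44% under si-UQCRC2. SLC25A37, the mitochondrial iron importer mitoferrin-1, was the 1 of the 4 called: it read 7.29, 7.51 and 7.49 in si-FAM210B arrays, 7.43, 7.41 and 7.41 in si-UQCRC2 arrays and 7.10, 7.15 and 7.04 in control arrays. Its differences from control were 0.34 ± 0.07 and 0.32 ± 0.07 in that order (limma, adjusted p = 0.0217 and 0.0295). Both calls were lost without control replicate 1 or 2 or si-UQCRC2 replicate 2 or 3, the first also without si-FAM210B replicate 3 and the second also without control replicate 3 or si-UQCRC2 replicate 1 (adjusted p 0.0501 to 0.134). NKX2-6, ENTPD4 and NEFM differed from control by -0.23 to 0.14 and were not called, and ADAM28 and ADAMDEC1 were below the minimum. Beside STC2, the genes RNA5SP200, NKX2-5, BNIP1, BOD1 and CPEB4 differed from control by -0.18 to 0.20 and none was called by limma, while CPEB4 under si-FAM210B had an unadjusted p of 0.0287. C5orf47, also beside STC2, was below the minimum.

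The genes whose pattern over the 9 arrays was most like that of STC1 were MT2A, GREM1, MT1CP, NAV3 and PLEK2. Likeness was the root mean square difference over the 9 arrays between log2 values, each less the gene's own control mean. It was 0.174 for MT2A, 0.234 for GREM1, 0.249 for MT1CP, 0.321 for NAV3 and 0.349 for PLEK2, where 0 is identity and STC1 itself has a root mean square of 1.08. No gene came within 0.1 of STC1. MT2A, a metal-binding metallothionein, read 11.17, 10.87 and 10.81 in si-FAM210B arrays, 10.75, 10.70 and 10.83 in si-UQCRC2 arrays and 9.56, 9.57 and 9.65 in control arrays. Metallothionein genes have near-identical copies, so the values of MT2A and of the pseudogene MT1CP are uncertain as to source. GREM1, a secreted BMP antagonist, read 8.25, 8.59 and 8.71 in si-FAM210B arrays, 7.88, 7.94 and 7.89 in si-UQCRC2 arrays and 6.82, 6.92 and 6.72 in control arrays. GREM1 differed more between the siRNAs than STC1 did, by 0.62 against 0.14 on the log2 scale.

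The genes most like STC2 were RUFY2, OSBPL2, INSIG2, DYNC2LI1 and RNF19A, at root mean square differences of 0.037 to 0.048. For STC2 464 genes came within 0.1, and its own root mean square was 0.13, so a pattern as small as that of STC2 was common. INSIG2, a sterol-regulated protein of the endoplasmic reticulum, is also on the HIF1 list and read 6.03, 6.18 and 5.93 in si-FAM210B arrays, 6.24, 6.28 and 6.20 in si-UQCRC2 arrays and 6.13, 6.10 and 6.04 in control arrays.

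**Figure D5:**
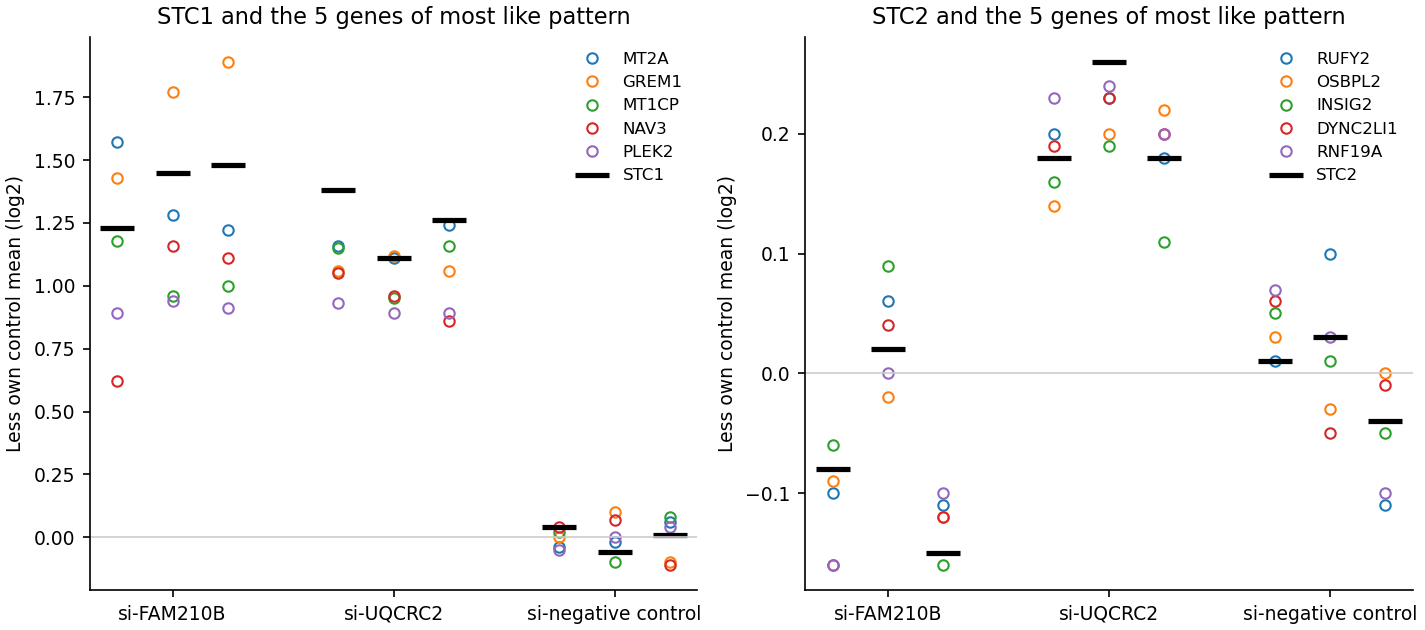
Log2 signal less the gene's own control mean (vertical axis) on the 9 arrays, grouped by siRNA with replicates 1 to 3 from left to right, for STC1 (left panel, black bars) and STC2 (right panel, black bars) with the 5 genes of most like pattern as open circles. The STC1 panel spans over 1 on the log2 scale, whereas the STC2 values lie between -0.15 and 0.26.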

How the data were processed

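Per the labels' protocols, biotin-labelled cDNA from total RNA was hybridised to Affymetrix whole-transcript arrays. The authors deposited log2 signal values made with RMA, per the submitters' processing notes. RMA corrects background, equalises arrays and summarises each transcript cluster's probes, which can compress differences of weak genes. Version, software and annotation: not given in the sources used here. Array medians were 4.20 to 4.40. Arrays have no counting depth, so their number limits the precision.

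The table's 67528 rows have no gaps. Of its rows, 23781 had 1 gene symbol in the platform annotation, updated through RefSeq (GRCh38.p14): 21497 by Entrez identifier, 1974 by symbol and 306 by synonym, while 4 were kept. A further 1543 rows had several symbols and 42204 had none. For the 528 genes with several rows the row of highest mean was kept. Genes with a mean of at least 4.25, the median of all row means, were tested: 15964.

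All 9 arrays entered 1 fit per gene without covariates in limma 3.58.1 (lmFit, eBayes) under R 4.3.3, with 6 residual degrees of freedom. A gene was called at a Benjamini-Hochberg adjusted p under 0.05 over all genes tested. The fit was tested on simulated data. The members and the 8 gene lists were chosen with earlier results of these data known. Genes named are STC1, STC2, the siRNA targets, the PAPP-A axis, up to 4 called members of each other list with the smallest p, 3 neighbours on each side and the 5 most like patterns. VEGFA, ATF4 and IGF-axis genes that were not called are named for their role. PPP1R15A, SLC7A5 and SLC3A2 are named as the ATF4 targets called in the other direction. Alternatives were quantile normalization, median centring, cyclic loess, other level filters, only the groups compared, array weights, the mean of a gene's rows, replicate number as a block, and arrays left out singly and as a pair. STC1 has no entry in the RefSeq promoter table used here.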

Additional observations from a re-analysis of the deposited data

How the results depend on the processing

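STC1 was higher than control under both siRNAs in every alternative run, and the paralog differences kept their sign in each. With each array left out in turn, STC1 differed by 1.34 to 1.46 (si-FAM210B minus control), 1.19 to 1.32 (si-UQCRC2 minus control) and 0.06 to 0.21 (si-FAM210B minus si-UQCRC2), and STC2 by -0.12 to -0.03, 0.18 to 0.22 and -0.32 to -0.24 in the same order. STC1 minus STC2 was 1.37 to 1.53, 0.97 to 1.14 and 0.31 to 0.49. Median centring gave STC2 -0.14 for si-FAM210B minus control and -0.36 for si-FAM210B minus si-UQCRC2. Array weights gave STC1 1.50, STC2 -0.14 and their difference 1.64 for si-FAM210B minus control. The other alternatives moved these values by less than the spread between replicates; the causes of those that moved more were not tested.

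Counts of called genes moved far more. For si-FAM210B against control, si-UQCRC2 against control and si-FAM210B against si-UQCRC2, limma called 1002, 712 and 1561 genes; with array weights 7018, 4145 and 7002, with only the groups compared 227, 1449 and 1040, and without the array labelled si-FAM210B replicate 1 and control replicate 3 together 3889, 2736 and 3835. With single arrays left out the counts were 306 to 1975, 249 to 1654 and 505 to 3280. Median centring called 559 for si-FAM210B against control. For that comparison the split of higher and lower calls was 444 and 558, against 533 and 427 after quantile normalization and 184 and 375 after median centring; for si-FAM210B against si-UQCRC2 it was 524 and 1037, against 212 and 951 after median centring. Over all alternatives, 2432 results of named genes stayed on their side of the threshold, 122 newly passed it and 212 no longer did.

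With the replicate block the counts were 409, 342 and 798, and the STC1 and STC2 differences were the same. The numbers do not pair the arrays: deviations of same-numbered arrays correlated between -0.584 and 0.512, and the array labelled si-FAM210B replicate 1 correlated best with control replicate 3 (0.742).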
